A study of Mus musculus with 16 samples.

Results

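The comparison described here is how the difference between ITGA6-high and ITGA6-low cardiomyocytes (CMs) of the mouse heart changed from embryonic day 15.5 (E15.5) to postnatal day 2 (P2). It rests on all 16 arrays of the series, 16 of 16, with 4 in each of 4 groups. EL and EH are ERBB-2-positive cells with low or high surface ITGA6 from pools of 20 to 30 embryonic hearts. PL and PH are cells with low or high ITGA6 from pools of 15 neonatal hearts, sorted after magnetic depletion of non-myocytes and without an ERBB-2 gate. All mice were CD1 wild-type, each fraction held at least 50000 cells, and the labels number 4 samples per group. The fractions were gated by surface staining and not by dissection, so a fraction can hold CMs of the other chamber and cells that are not CMs. All P2 arrays lay on 1 slide and the E15.5 arrays on 2 others, so a change of level between the stages cannot be told apart from slide and purification step. Each difference between fractions was taken within a stage, but the cells were purified by an ERBB-2 gate at E15.5 and by depletion at P2, so an effect of either on 1 fraction is part of the interaction and cannot be told apart from stage.

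Atrial and ventricular CMs differ in their myosin light chains, ion channels, natriuretic peptides and transcription factors. Integrin α6 (ITGA6, CD49f) is a laminin receptor chain, used here as the surface marker that separates an atrial-enriched from a ventricular-enriched fraction. Around birth, CMs of both chambers change their contractile isoforms and move from glucose toward fatty acid as fuel, so the chamber difference of the embryo need not be that of the newborn.

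For every probe the log2 difference EH minus EL was subtracted from PH minus PL. This interaction is positive where the difference moved toward the high fraction at P2 and negative where it moved toward the low fraction. It was examined for the 22250 of 55681 probes well above background on all 4 arrays of at least 1 group. At the edge of this rule, 1692 probes passed through 1 group alone, with a median signal of 31.2 in their highest group, and 1461 probes that reached only 3 arrays of a group, and so were not examined, had 22.5. A probe was called where limma gave an adjusted p (Benjamini-Hochberg, over all probes) of 0.05 or less and the interaction was at least 3-fold (1.58 on the log2 scale). Of the detected probes, 557 were called (2.5%), 284 positive (1.28%) and 273 negative (1.23%). Of these, 410 had widened, with a larger difference at P2 than at E15.5 (1.84%), 111 had narrowed (0.499%), 32 had reversed, with the excess passing from one fraction to the other (0.144%), and 4 fell in none of these classes (0.018%). A reversal needed differences of opposite sign that passed an adjusted p of 0.05 at both stages. A widened or narrowed probe can therefore also have changed sign. With normexp background correction 95 positive and 138 negative probes were called, and among the 17199 probes well above background on all 16 arrays 92 and 117. The normexp correction added an offset of 50 to every signal, which draws the log2 differences of dim probes toward 0. Counted as genes, each by its brightest probe, 412 of 12978 were called (3.17%), 200 positive (1.54%) and 212 negative (1.63%), and the median interaction over all 12978 was 0.04. Of the 12978 genes 7006 had a positive and 5972 a negative sign.

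The high fractions carried more of the atrial and the low fractions more of the ventricular transcripts at both stages. Of 19 detected atrial identity genes, 16 were called higher in EH than in EL, against 3.23% of all genes, and 18 higher in PH than in PL, against 4.47%. Of 13 detected ventricular identity genes, 4 were called lower in EH, against 1.13%, and 10 lower in PH, against 2.11%. *Tnnt2*, the troponin T of all CMs, differed between the fractions by 0.23 at E15.5 and -0.12 at P2 on the log2 scale, and its interaction did not pass the test (-0.35, SE 0.12, adjusted p = 0.197). For *Itga6* itself a probe at chr2:71694756-71694815 (mm9) was 4.26 higher in EH and 4.51 higher in PH, with an interaction of 0.25 (SE 0.20, adjusted p = 0.73). The brighter *Itga6* probe differed by only 0.57 and 0.11, so the 2 probes disagreed about the fractions, and neither had an interaction that passed the test.

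**Figure D1:**
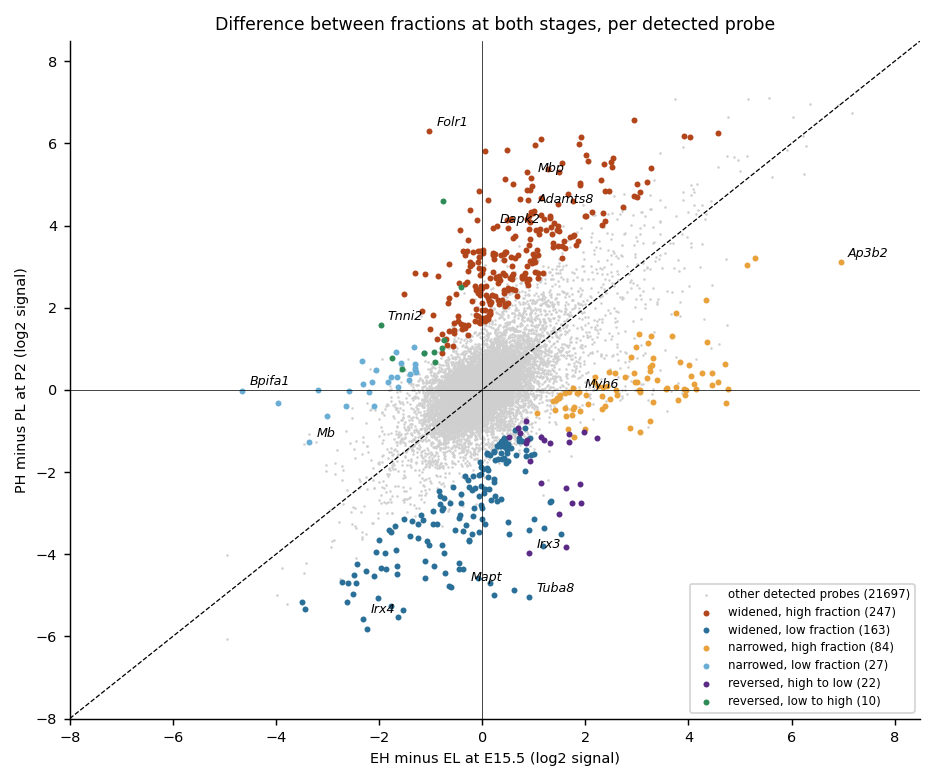
Each point is 1 of 22250 detected probes, with EH minus EL on the horizontal and PH minus PL on the vertical axis (log2 signal), colored by class with the number of probes in the legend, and the dashed line marks an equal difference at both stages. The 247 and 163 probes whose difference widened toward the high or the low fraction make up most of the colored points.

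Widening was the most frequent class. In 247 probes (1.11%) the high fraction was the higher at P2, with a median difference of 0.48 at E15.5 and 3.19 at P2, and in 170 of them EH against EL had not passed an adjusted p of 0.05. In 163 probes (0.733%) the low fraction was the higher at P2, with medians of -0.04 and -2.76, and 119 had not passed at E15.5. Both fractions took part in these changes of level. Among the 247 probes PL lay below EL in 204 and PH above EH in 186. The low fraction was the one that had moved more in 137, beside 13089 of all 22250. Among the 163 probes PL lay above EL in 130 and PH below EH in 126. A group in which no array was well above background was present for 117 of the 247 and 60 of the 163, and with all values raised to at least the background floor 169 and 130 were still called.

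*Mbp* is the gene of myelin basic protein, which compacts the myelin sheath of oligodendrocytes and Schwann cells. Its normalized signals were 174, 132, 197 and 155 for EL, 300, 345, 285 and 322 for EH, 26.6, 44.1, 56.5 and 30.9 for PL and 1313, 1252, 1450 and 1410 for PH. The fractions did not overlap at either stage, and PL was the lowest and PH the highest of the groups. The difference was 0.94 at E15.5 (1.92-fold) and 5.16 at P2 (35.8-fold), an interaction of 4.22 (SE 0.28, adjusted p = 2.51e-06). The probe lies at chr18:82727929-82727988 (mm9), and a dimmer detected probe, not well above background in PL, gave 2.40 after the floor. On the E15.5 slide with 5 arrays (EL 2, EL 8, EH 2, EH 3 and EH 8) the difference was 0.97. On the slide with 3 arrays (EL 3, EL 6 and EH 6) it was 0.82 and rests on a single EH array.

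*Adamts8* encodes a secreted metalloprotease of the extracellular matrix. It had signals of 416, 281, 276 and 271 for EL, 724, 619, 547 and 469 for EH, 206, 115, 191 and 166 for PL and 3621, 4223, 6728 and 5152 for PH. All PH arrays lay above the other 12, PL lay below EL, and the difference rose from 0.93 to 4.86 (interaction 3.93, SE 0.32, adjusted p = 1.99e-05). The related protease gene *Adamts15*, also on chromosome 9, had 212 ± 39.8 for EL, 136 ± 29.9 for EH, 143 ± 46.5 for PL and 1175 ± 326 for PH (mean ± SD, n = 4), and its interaction was 3.71 (SE 0.36). As for *Adamts8*, PH alone stood high.

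*Dapk2*, a kinase activated by calcium and calmodulin, had similar signals in 3 groups, 49.8 to 64.4 for EL, 56.7 to 77.5 for EH and 32.2 to 61.6 for PL. On the PH arrays it reached 486, 636, 1082 and 823. EL and EH overlapped (difference 0.20, adjusted p = 0.748), PL and PH did not (3.94, or 15.3-fold), and the interaction was 3.74 (SE 0.33, adjusted p = 3.16e-05).

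*Mapt*, the gene of the microtubule-associated protein tau, showed the opposite direction. Its signals were 77.9, 86.2, 107 and 87.8 for EL, 53.6, 71.3, 83.6 and 70.7 for EH, 1104, 543, 1472 and 1073 for PL and 71.3, 28.9, 56.7 and 47.0 for PH. Only PL stood apart. The difference went from -0.37 (adjusted p = 0.606) to -4.35, an interaction of -3.98 (SE 0.43, adjusted p = 0.000144). Both other detected *Mapt* probes were called in the same direction, at -3.76 and, for a probe well above background on all arrays of PL alone, -2.62 after the floor.

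**Figure D2:**
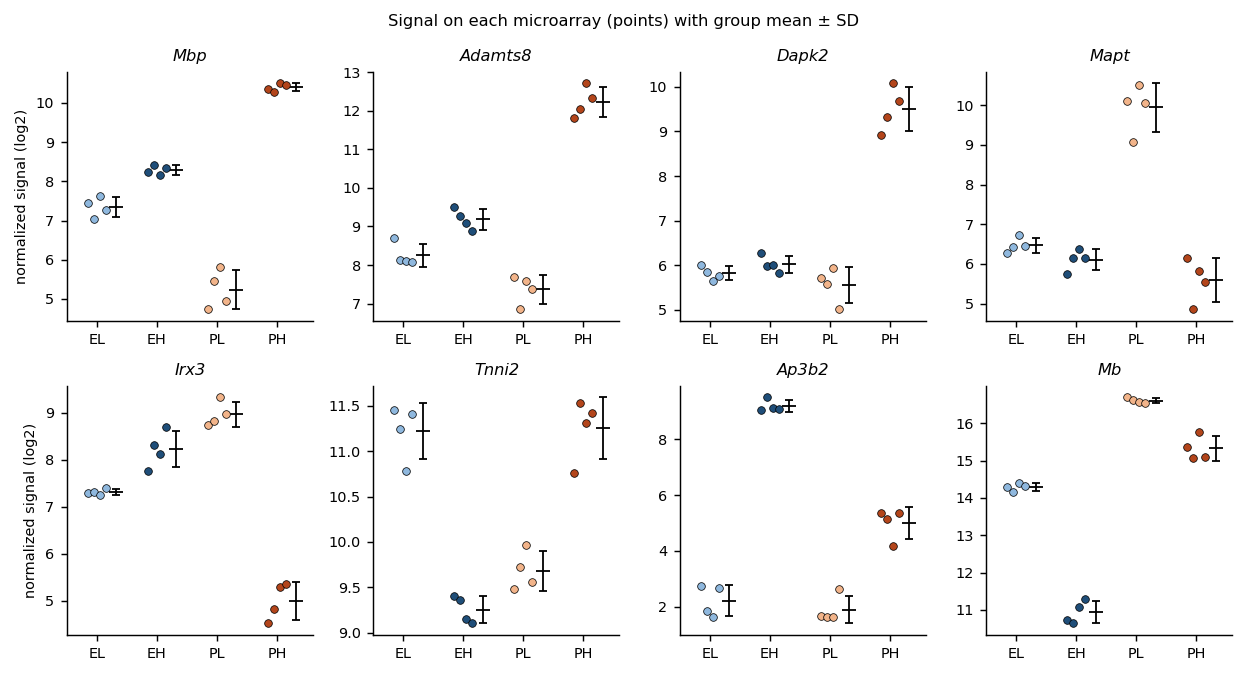
Normalized log2 signal (vertical axis) of 8 genes on each of the 16 arrays by group, with the mean ± SD of the 4 log2 values beside the points. *Mbp*, *Adamts8* and *Dapk2* stand highest in PH and *Mapt* in PL, *Irx3* and *Tnni2* exchange their higher fraction between E15.5 and P2, and the differences of *Ap3b2* and *Mb* are smaller at P2 than at E15.5.

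The largest positive interaction of any detected probe was that of *Folr1*, the folate receptor α, which takes up folate at the cell surface. Its signal was 66.6 to 115 for EL, 29.2 to 56.1 for EH, 3.21 to 9.63 for PL and 307 to 382 for PH. PL was not well above background on any array, so PH exceeded it at least 17.2-fold, counting each PL array at no less than the lowest signal called well above background on it. The fitted interaction was 7.33 (adjusted p = 2.3e-06) and 5.13 after the floor, and at E15.5 the difference had been -1.03 (adjusted p = 0.0834). *Podn*, a small leucine-rich proteoglycan, had 15.5 ± 5.03 for EL, 33.5 ± 7.76 for EH, 65.8 ± 38.9 for PL and 4132 ± 1109 for PH (interaction 4.97, SE 0.50). *Matn2*, a matrilin of the matrix, was at 56.5 ± 14.3 and 57.5 ± 5.94 in the embryonic fractions and at 485 ± 181 in PH, at least 23.6-fold above PL, where it was not well above background.

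Soluble guanylate cyclase, the receptor enzyme for nitric oxide, makes cyclic GMP, and the genes of both its subunits lie on chromosome 3 and widened. *Gucy1b1* (*Gucy1b3* in the files) gave 381 ± 51.2 for EL, 514 ± 44.0 for EH, 24.7 ± 7.06 for PL and 839 ± 88.6 for PH, an interaction of 4.69 (SE 0.26, adjusted p = 8.98e-07). *Gucy1a1* (*Gucy1a3* in the files) gave 298 ± 37.0, 1092 ± 82.9, 38.5 ± 18.8 and 2238 ± 281 in the same order, an interaction of 4.12 (SE 0.39, adjusted p = 5.61e-05). For both genes PL was the lowest group and PH the highest. *Pde5a*, the phosphodiesterase that degrades cyclic GMP, moved the other way, from 0.26 to -1.71 (interaction -1.96, SE 0.40, adjusted p = 0.0146), and lost the call when PL 3 and PL 4 were both left out (-1.89, adjusted p = 0.0536). In the list of autonomic receptors and cyclic nucleotide signaling, 30 genes were detected, with a median of -0.21. Of these 1 was called positive, against 1.54% of all genes, *Gnao1*, a G protein subunit (2.01). Called negative were 3, against 1.63%, among them the adenylyl cyclase *Adcy9* (-2.36).

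*Mlana*, known from melanocytes, was at least 5.26-fold higher in EH than in EL, which was not well above background, and 94.5-fold higher in PH than in PL, with 5503 to 8756 on the PH and 39.2 to 213 on the PL arrays (interaction 3.62, SE 0.64, adjusted p = 0.00598, and 4.17 after the floor). Among other pigment cell genes, *Tyrp1* was not well above background on any array. *Pmel*, not well above background on any EL array, had an interaction of -1.13 (adjusted p = 0.686), or -0.17 after the floor. *Dct*, dopachrome tautomerase, widened toward the low fraction (-3.91, SE 0.59, adjusted p = 0.00195), with 271 to 680 on the PL and 12.9 to 30.8 on the PH arrays.

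Toward the low fraction, *Tuba8*, an α-tubulin of restricted expression, had the largest interaction. It was at 6.76 to 11.1, not well above background, on the EL and 10.6 to 23.3 on the EH arrays, at 1246, 603, 1284 and 1038 on the PL arrays and at 41.2, 17.2, 53.7 and 22.5 on the PH arrays, and its interaction was -5.96 (SE 0.52, adjusted p = 3.16e-05), or -5.26 after the floor. The β-tubulin *Tubb2a* had 4101 ± 325, 3470 ± 649 and 3636 ± 682 for EL, EH and PL but 284 ± 43.9 for PH (mean ± SD, n = 4; interaction -3.41, SE 0.22). Here PH alone stood low, whereas for *Tuba8* and *Mapt* PL alone stood high. Of 19 detected genes of microtubules, neurofilaments and myelin, 4 were called negative, against 1.63% of all genes, the 3 just named and *Tubb2b* (-2.90). Called positive was 1, against 1.54%, *Mbp*, and the median was 0.22.

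*Smyd2*, a lysine methyltransferase of histone and other proteins, had 18707 ± 1164 for EL, 6061 ± 970 for EH, 23733 ± 1799 for PL and 516 ± 84.7 for PH. Its difference was -1.64 at E15.5 and -5.53 at P2 (interaction -3.90, SE 0.18, adjusted p = 1.14e-07), whereas the interaction of its relative *Smyd1* did not pass the test (-0.57, adjusted p = 0.164). *Robo4*, a guidance receptor best known from endothelium, was at 224, 190, 291 and 309 on the PL and 21.6, 18.5, 14.5 and 17.7 on the PH arrays (-4.98, SE 0.82). On the EH arrays *Robo4* was at 118, 103, 768 and 790, higher on EH 6 and EH 8, the arrays with the highest summed signal of endothelial genes. At E15.5 its difference had been 1.18, toward the high fraction (adjusted p = 0.318).

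The Iroquois homeobox genes *Irx1* to *Irx5* were detected, and the interaction of all 5 was called negative, against 1.63% of all genes. These transcription factors lie in a pair of clusters, *Irx1*, *Irx2* and *Irx4* on chromosome 13 and *Irx3*, *Irx5* and *Irx6* on chromosome 8, and are known for *Irx4* in ventricular muscle and for *Irx3* and *Irx5* in ventricular conduction and repolarization. The *Irx3* signal was 156, 158, 151 and 169 for EL, 216, 319, 280 and 412 for EH, 424, 453, 643 and 503 for PL and 22.9, 28.3, 39.1 and 40.7 for PH. At E15.5 every EH array was above every EL array, and at P2 every PH array was below every PL array. *Irx3* thus reversed, from 0.91 (1.88-fold higher in EH, adjusted p = 0.0147) to -3.97 (15.7-fold lower in PH), with an interaction of -4.88 (SE 0.30, adjusted p = 2.01e-06). Within the E15.5 slides the difference was 0.91 and, on the slide with a single EH array, 0.85.

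*Irx5* reversed as well, from 1.49 to -3.02 (-4.50, SE 0.58, adjusted p = 0.000633), but it was well above background only in EH and PL. Counted against the background floor it was at least 2.29-fold higher in EH than in EL and at least 2.42-fold lower in PH than in PL, and with normexp its interaction stayed negative but under 3-fold. Near *Irx5* lies *Crnde*, a long noncoding RNA (*4933436C20Rik* in the files), with 36.1, 35.8, 54.9 and 46.7 for EL, 112, 146, 166 and 253 for EH, 76.9, 118, 118 and 95.6 for PL and 14.5, 10.7, 16.6 and 19.9 for PH. It reversed too (1.92 to -2.74, interaction -4.67, SE 0.36, adjusted p = 1.39e-05), and PH, not well above background, was at least 5.65-fold below PL. The genes of the chromosome 13 cluster widened toward the low fraction instead, *Irx4* from -2.31 to -5.57 (-3.26, SE 0.18, adjusted p = 9.56e-07), *Irx1* from -0.78 to -3.76 (-2.99, SE 0.29) and *Irx2* from -0.42 to -3.04 (-2.62, adjusted p = 0.0235). *Irx2* lost the call without EH 6 and EH 8, without EL 6 and EH 6 and without PL 3 and PL 4 (adjusted p up to 0.139), without EH 6, EH 8, EL 2 or EL 3 alone, and with normexp (-0.70). With the sample number as a block *Irx2* lost it too. *Irx6* was not well above background on any array.

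The 250 bases before the RefSeq start of *Irx3* and *Crnde* (GRCm38.p6, both on the minus strand, chr8:91801655-91801904 and chr8:92356121-92356370) are shown because these genes of one region moved together. They were searched on both strands for AGGTGT, a core of T-box factor sites, and AGGTCA, the core of nuclear receptor sites, which share their first 4 letters. Neither sequence holds either motif, so none is in capitals, and 11.8% and 14.0% of 32851 mouse promoter windows of this length hold them.
Irx3: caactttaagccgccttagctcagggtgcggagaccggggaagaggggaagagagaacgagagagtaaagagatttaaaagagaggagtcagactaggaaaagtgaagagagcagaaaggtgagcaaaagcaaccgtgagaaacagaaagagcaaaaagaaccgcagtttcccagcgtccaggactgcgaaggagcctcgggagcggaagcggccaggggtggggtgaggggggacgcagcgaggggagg
Crnde: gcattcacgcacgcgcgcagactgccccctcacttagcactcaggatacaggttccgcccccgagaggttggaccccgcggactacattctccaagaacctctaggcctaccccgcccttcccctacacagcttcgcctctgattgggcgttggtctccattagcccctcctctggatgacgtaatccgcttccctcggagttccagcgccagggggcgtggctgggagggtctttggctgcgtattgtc

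In all, 22 probes reversed from a higher high fraction to a higher low fraction (0.0989%) and 10 the other way (0.0449%). The count of 32 was 52 with p-values adjusted over the detected probes alone, 19 with normexp and 65 with the sample number as a block, of which 27 were among the 32. *Cavin4* (*Murc* in the files), a caveolar protein of muscle, had 416, 335, 559 and 562 for EL, 1043, 939, 933 and 1144 for EH, 2573, 2132, 2710 and 2372 for PL and 449, 410, 646 and 553 for PH. Its interaction was -3.41 (SE 0.25, adjusted p = 7.23e-06), with no overlap between the fractions at either stage. *Limch1*, an actin-binding protein, went from 1.69 to -1.08 (-2.76, SE 0.33). *Dcpp1*, of a family of secreted glandular proteins, went from 1.62 (adjusted p = 0.0473) to -3.82. *Dcpp3* changed sign too, from 1.54 to -3.50 (-5.04), but was classed as widened because its E15.5 difference had an adjusted p of 0.0814. *Dcpp1* and *Dcpp3* belong to closely similar gene copies, which the probes may not tell apart.

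*Tnni2*, the troponin I of fast skeletal muscle, reversed in the opposite sense. It had 2805, 2430, 1762 and 2710 for EL, 676, 656, 568 and 550 for EH, 714, 843, 1004 and 754 for PL and 1728, 2953, 2528 and 2729 for PH. The fractions did not overlap at either stage, and the ranges of EL and PH, the higher fraction of each stage, overlapped. The difference was -1.97 at E15.5 and 1.57 at P2 (interaction 3.54, SE 0.26, adjusted p = 7.23e-06). *Crb2*, a Crumbs polarity protein, had 116 ± 17.1 for EL, 67.8 ± 9.68 for EH and 97.4 ± 35.5 for PH (mean ± SD, n = 4), and PH exceeded PL, which was not well above background, at least 4.76-fold (interaction 5.36 as fitted and 3.02 after the floor). *Bend6* (-1.76 to 0.77), *Gprc5b*, an orphan G protein-coupled receptor (-0.75 to 1.21), and *Zfp385b* (-1.14 to 0.89) also reversed in this sense, and for *Bend6* single arrays of PL and PH overlapped. With normexp *Bend6* was at 1.53 and *Zfp385b*, which was not well above background in EH, at 0.45, and neither was called.

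**Figure D3:**
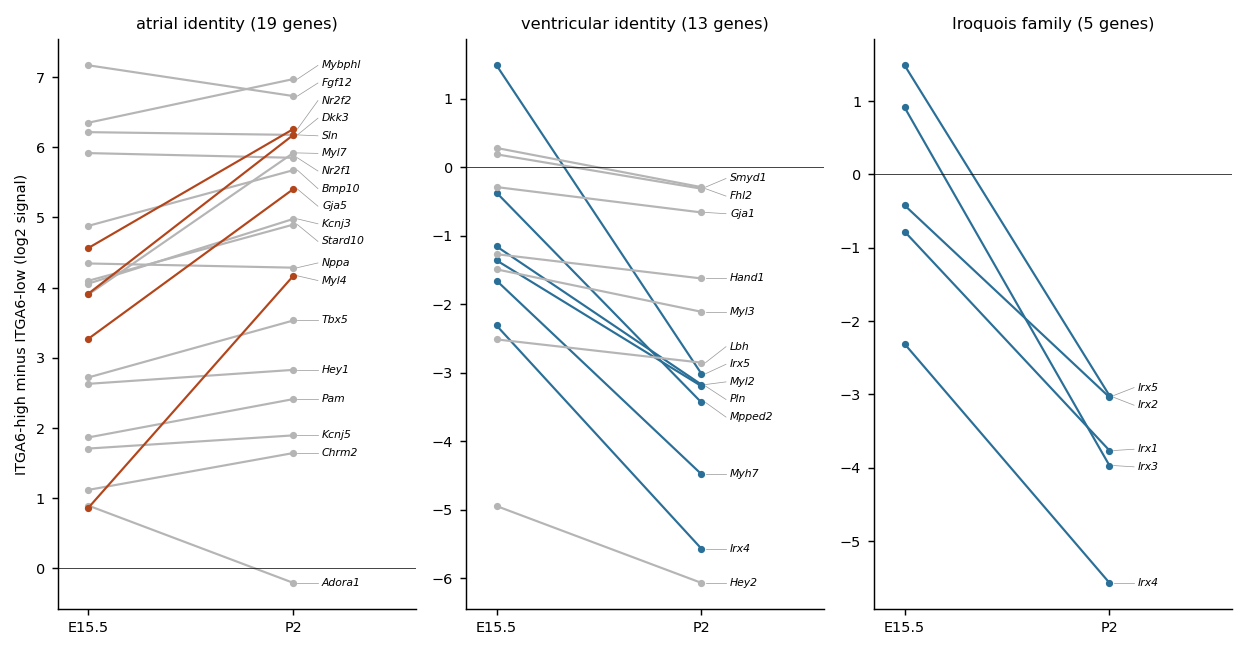
ITGA6-high minus ITGA6-low (log2 signal, vertical axis) at E15.5 and P2 for each detected gene of the atrial identity and ventricular identity lists and for the Iroquois genes, with lines in red where the interaction was called positive, blue where it was called negative and gray where it was not called. The 13 ventricular genes all slope down, 6 of them called, and the 19 atrial genes slope both ways, 4 of them called.

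The ventricular and the atrial identity lists both held more called members than the 3.17% of all genes. Of 13 ventricular genes 6 were called negative, 0 positive, and all 13 had a negative sign, with a median interaction of -1.12 beside 0.04 over all genes. The called members were *Irx4*, *Irx5*, *Mpped2*, *Myh7*, *Myl2* and *Pln*, and the value closest to 0 was that of *Lbh*, a transcriptional regulator (-0.34, with EH 5.71-fold below EL and PH 7.23-fold below PL). After the background floor the median was -0.62, and *Hey2*, a transcriptional repressor that was not well above background in PH, had 0.31 in place of -1.12 and *Hand1*, a basic helix-loop-helix factor, 0.91 in place of -0.35, so 2 of the 13 were then positive. Without EH 6 and EH 8 the same number, 6, was called with a median of -0.53. Of 19 atrial genes 4 were called positive, *Myl4*, *Dkk3*, *Gja5* and *Nr2f2*, 0 negative, and 14 had a positive sign, with a median of 0.62. *Nr2f2*, a nuclear receptor of atrial CMs, had 1.69, but 1.30 after the floor and 0.36 with normexp, both under 3-fold. *Adora1*, an adenosine receptor, had the lowest value of the list, -1.10, under 3-fold.

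*Myh7*, the slow β-myosin heavy chain, had 245046 ± 6947 for EL, 79184 ± 18118 for EH, 119271 ± 10471 for PL and 5342 ± 512 for PH. The difference grew from -1.66 to -4.48 (-2.83, SE 0.18, adjusted p = 2.3e-06). The regulatory light chain *Myl2* went from -1.16 to -3.17 (-2.02, SE 0.21) and *Pln*, phospholamban, the inhibitor of the calcium pump of the sarcoplasmic reticulum, from -1.36 to -3.20 (-1.84, SE 0.27). Quantile normalization gives the brightest probes of each array the same few values. *Myl3* held 323858, the highest value of the normalization, on all 8 arrays of EL and PL. *Myl2* lay below it, with the same 4 values in EL as in PL. For either gene a change between these groups that left its rank the same could not show. *Myh7* held 248520, another of these shared values, on EL 2, EL 3 and EL 6, so a higher level there could show only as a change of rank.

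*Myl4*, the atrial essential light chain, which the embryonic ventricle also expresses, was at 147361 to 168922 on the EL and 286863 to 298010 on the EH arrays, at 7512, 22553, 38352 and 10184 on the PL arrays and at 263054 to 323858 on the PH arrays. PL alone stood low. The difference was 0.86 at E15.5 (adjusted p = 0.221) and 4.17 at P2, an interaction of 3.30 (SE 0.52, adjusted p = 0.00269). The EH and PH signals of *Myl4* are among the shared values of the brightest probes. A further excess in EH or PH could thus show only as a change of rank. *Dkk3*, a secreted Dickkopf protein, went from 3.92 to 6.18 (2.26, SE 0.49, adjusted p = 0.0215), and lost the call without EH 6 and EH 8 (adjusted p = 0.0933). *Gja5*, the gap junction protein connexin 40, went from 3.27 to 5.40 (2.13, adjusted p = 0.033), but lost the call when any 1 of 10 of the 16 arrays was left out (adjusted p up to 0.0749). A dimmer detected *Gja5* probe, not well above background in EL or PL, was not called (1.69, adjusted p = 0.0802, and 0.31 after the floor).

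For 3 further atrial genes the interaction was not called. The difference of *Nppa*, atrial natriuretic peptide, was 20.3-fold at E15.5 and 19.5-fold at P2 (interaction -0.06, SE 0.43, adjusted p = 0.978). On PH 4 and PH 5 it held 323858, the highest value of the normalization, so a further excess in PH could not show. *Sln*, sarcolipin, had 74.3-fold and 72.3-fold (-0.04, SE 0.78, adjusted p = 0.994), and without PL 3 and PL 4 its interaction was 1.15 (adjusted p = 0.305). For *Myl7*, the atrial regulatory light chain, PL held 1485, 4898, 10757 and 2088, highest on PL 3 and PL 4, the arrays on which *Sln*, *Nppa*, *Myl4*, *Dkk3* and *Gja5* were also highest within PL. Its interaction was 2.02 (SE 0.62, adjusted p = 0.124) and was called in 4 of the 27 alternatives. These included the fit without PL 4 (2.55, adjusted p = 0.0035), that without PL 3 and PL 4 (3.04, adjusted p = 1.1e-05) and normexp (2.00, adjusted p = 0.0462). Without both PL 3 and PL 4, 6 of the 19 atrial genes were called with a median of 1.10, and without both EH 6 and EH 8 2 were called. Whether PL 3 and PL 4 held more atrial CMs was not tested, and in such bulk samples fewer cells of a type and less RNA per cell cannot be told apart.

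Contractile genes showed stage dependence in single members. Of 37 detected sarcomere genes, 3 were called positive (*Tnni2*, *Myl4* and *Tnnt1*, at 1.88), against 1.54% of all genes, 4 negative (*Myh7*, *Myl2*, *Acta2* and *Myh6*), against 1.63%, and the median was -0.08. *Myh6*, the fast α-myosin heavy chain, had 76970, 74606, 69177 and 56580 for EL, 248520, 263054, 248520 and 226948 for EH, 263054, 272331, 286863 and 263054 for PL and 226948, 263054, 286863 and 248520 for PH. EL alone stood low, and the difference narrowed from 1.84 to -0.09 (-1.93, SE 0.14, adjusted p = 6.55e-06). *Mb*, myoglobin, the oxygen store of muscle, had 19962, 18104, 21619 and 20595 for EL, 1689, 1610, 2177 and 2485 for EH, 106169, 100372, 97222 and 94958 for PL and 42143, 34493, 56111 and 34853 for PH. Its difference narrowed from -3.35 (10.2-fold) to -1.28 (2.43-fold), an interaction of 2.08 (SE 0.23, adjusted p = 0.000168), with the low fraction higher at both stages.

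Genes of fatty acid oxidation had small interactions, mostly of 1 sign. Of 31 detected members 26 had a negative sign, beside 5972 of all 12978 genes, with a median of -0.82 beside 0.04 over all genes. In limma 17 passed an adjusted p of 0.05, beside 1213 of the 12978. Only 1 was called negative, against 1.63% of all genes, and 1 positive, against 1.54%, the others staying under 3-fold. The positive one was *Ces1d*, a carboxylesterase well above background in PH alone (2.83, or 3.06 after the floor), at least 6.96-fold higher in PH than in PL. With normexp it was at 1.35 and lost the call. Over the 31 members the median difference between fractions was -0.21 at E15.5 and -0.93 at P2. *Hadha* and *Hadhb*, the subunits of the mitochondrial trifunctional protein, had interactions of -0.99 (SE 0.10) and -1.04 (SE 0.11), and *Cd36*, a fatty acid transporter, -1.50 (SE 0.15). *Fabp3*, a fatty acid binding protein, had a positive value (0.45, SE 0.10). Of 26 genes of glycolysis and glucose uptake 0 were called in limma (14 at an unadjusted p under 0.05, median 0.05), and of 34 cell cycle genes also 0 (9 at an unadjusted p under 0.05, median 0.25).

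Among 30 cardiac transcription factors, 2 were called positive, against 1.54% of all genes, and the 5 Iroquois genes negative, against 1.63%, and the median was -0.13. Among the 2 was *Tbx2*, a T-box repressor (1.31 to 4.19, 2.88, but 1.18 after the floor). *Tbx5*, *Gata4* and *Hand2* stayed under 3-fold, at 0.81, 0.55 and -0.86. Of 29 genes of calcium handling, *Dapk2* was called positive, against 1.54% of all genes, and *Itpr2*, an inositol trisphosphate receptor (0.03 to -2.51), and *Pln* negative, against 1.63% (median -0.27). Of 22 genes of potassium, sodium and HCN channels, 2 were called negative, against 1.63% of all genes, *Abcc9*, the sulfonylurea receptor subunit (-2.24), and the sodium channel subunit *Scn4b* (-2.53, but -0.78 after the floor), and 0 positive (median -0.24). Of 16 conduction system and pacemaker genes only *Irx3* was called, against 3.17% of all genes in either direction (median 0.29).

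Signaling genes were called in 3 of 4 lists. In the BMP and TGF-β list, 5 of 27 were called negative, against 1.63% of all genes, and 0 positive (median 0.18), among them the ligands *Bmp4* (0.46 to -1.79, interaction -2.24, SE 0.26) and *Bmp7* (-1.62), the TGF-β binding protein *Ltbp1*, which reversed (0.74 to -1.05), the activin antagonist *Fst* and the BMP target *Id3*. *Fst* (-2.14, adjusted p = 0.0389) and *Id3* (-1.82, adjusted p = 0.0375) each lost the call without any 1 of 11 arrays, with adjusted p up to 0.0865 and 0.0825. With the sample number as a block *Fst* lost it as well. PL was not well above background for *Fst*, and after the floor its interaction was -3.96 (adjusted p = 4.9e-06). *Bmp7* lost it without EH 3, without PH 4 and with normexp (-1.56), and with normexp *Ltbp1* (-1.24) and *Id3* (-1.48) did too. In the Wnt list, 2 of 23 were called positive, against 1.54% of all genes, *Dkk3* and the secreted antagonist *Sfrp1* (-0.43 to 3.90, 4.33, SE 0.51), and 1 negative, against 1.63%, *Wnt11* (-2.56), with a median of 0.03. *Wnt11* was at -1.47 after the floor, under 3-fold, and lost the call in all 3 fits that left out a pair of arrays (adjusted p up to 0.0764) and with the sample number as a block. *Fgf9* was the only one of 22 FGF, neuregulin and VEGF genes to be called (-1.88, SE 0.32, with a median of -0.06), against 3.17% of all genes in either direction. With normexp it was not called (-1.40). Of 11 Notch and Hey genes 0 were called in limma (6 at an unadjusted p under 0.05, median -0.09).

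In the extracellular matrix list, 3 of 29 were called positive, against 1.54% of all genes, *Adamts8*, *Adamts15* and *Fbln1*, a fibulin (2.46 to 4.84, 2.38, SE 0.38), and 0 negative, with a median of 0.37. Of 23 adhesion and integrin genes 0 were called in limma (11 at an unadjusted p under 0.05, median 0.26). Of 35 axon guidance genes 5 were called negative, against 1.63% of all genes, and 0 positive (median -0.20). These were *Robo4*, the ephrin *Efnb3* (-0.56 to -2.36) and the netrin *Ntn4* (-1.86 to -4.37), whose difference widened, and the semaphorin receptor *Plxnd1* (2.86 to -0.94) and the ligand *Slit2* (3.39 to 0.25), whose difference narrowed. On the EH arrays *Plxnd1* was at 1199, 936, 4009 and 3459, higher on EH 6 and EH 8, the arrays with the highest summed endothelial signal. *Ntn4* was at -1.48 after the floor, under 3-fold, and lost the call in the same 3 fits (adjusted p up to 0.0817).

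**Figure D4:**
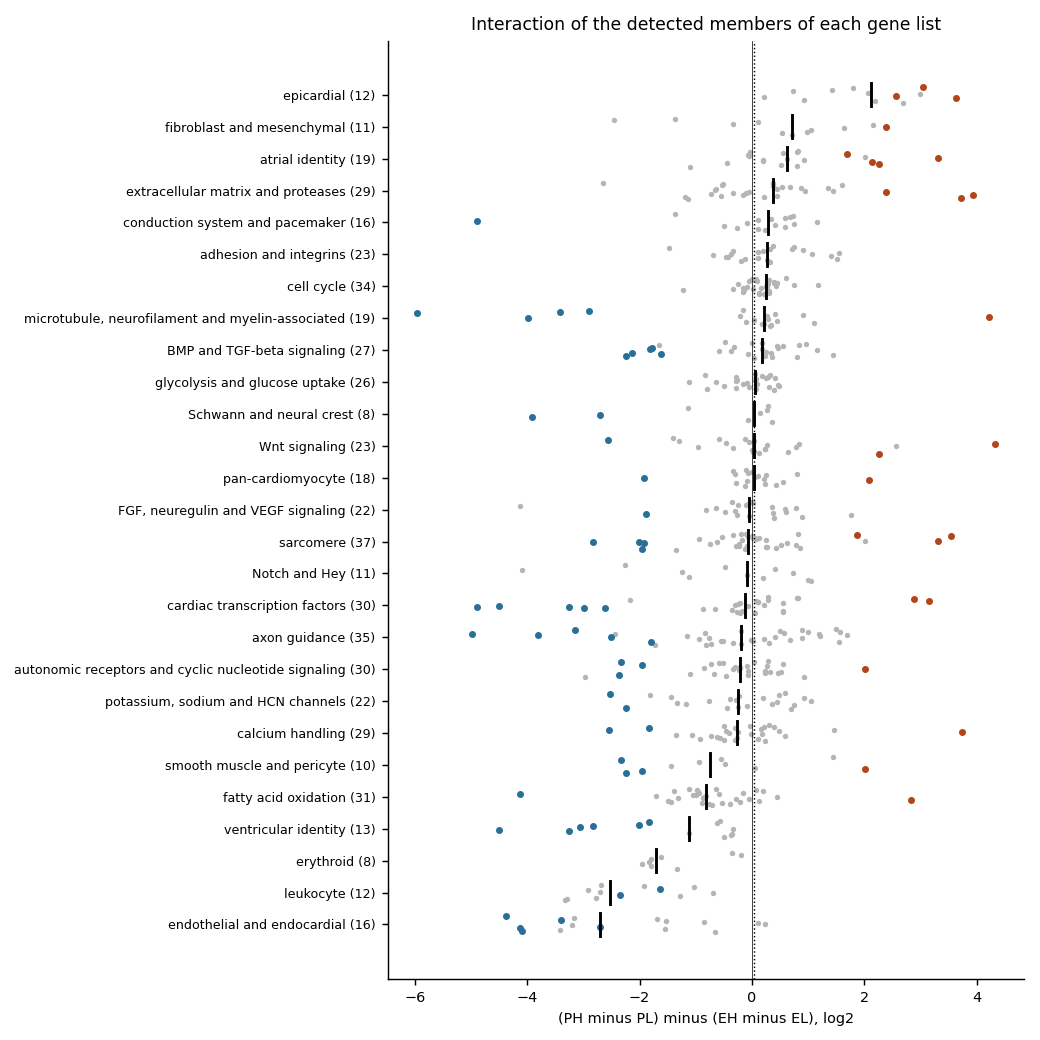
Interaction (log2, horizontal axis) of each detected member of the 27 gene lists, with the number of members in parentheses, red and blue points for members called positive and negative, gray for the others, a black bar at the median of the list and a dotted line at the median of all 12978 genes, 0.04. The medians of the endothelial, leukocyte and erythroid lists are the lowest and that of the epicardial list is the highest.

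Narrowing was the second class by number. In 84 of the 111 narrowed probes (0.378% of those detected) the high fraction had been the higher at E15.5, with medians of 2.99 at E15.5 and 0.03 at P2, and PH lay below EH in 69 of them. In the other 27 (0.121%) the low fraction had been the higher, with medians of -1.83 and 0.23, and PL lay below EL in 25. *Ap3b2*, a subunit of the adaptor complex AP-3 known from neurons, had 533, 725, 551 and 539 on the EH and 40.6, 35.6, 18.1 and 41.0 on the PH arrays. It was not well above background in EL and PL, so EH exceeded EL at least 39.8-fold and PH exceeded PL at least 1.66-fold (fitted interaction -3.85, SE 0.46, adjusted p = 0.00033). *Gm1987* was at 133 to 575 on the EH arrays and not well above background in either P2 group. In the other direction, *Mt2*, a metallothionein, had 8996 ± 2057 for EL, 1840 ± 538 for EH, 4565 ± 1029 for PL and 4980 ± 773 for PH (2.45, SE 0.34). *Grhl3*, an epithelial transcription factor, had an interaction of 2.24 and *Elovl7*, a fatty acid elongase, of 2.32, but 0.82 with normexp. *Bpifa1*, a secreted protein of airway epithelium, and *Megf10*, a receptor with EGF repeats, were well above background on all arrays of EL and on at most 1 array of any other group. Their interactions were 4.64 and 3.64 as fitted, 2.92 and 2.63 after the floor, and 1.48 and 1.24 with normexp, under 3-fold.

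Markers of other cell types moved with this narrowing. Of 16 detected endothelial and endocardial genes 5 were called negative, against 1.63% of all genes, *Cdh5*, *Tie1*, *Emcn*, *Plvap* and *Eng*, and 0 positive. The median interaction was -2.71, from a median difference of 3.12 at E15.5 to 0.60 at P2. *Cdh5*, VE-cadherin of endothelial junctions, was at 77.3, 46.0, 391 and 333 on the EH arrays and not well above background in EL, PL or PH, so that EH exceeded EL at least 10.0-fold. The summed signal of the list was 2279, 2314, 2667 and 2478 for EL, 6535, 5316, 15891 and 14232 for EH, 994, 1059, 1932 and 2317 for PL and 1642, 1884, 1798 and 2503 for PH. EH stood above the other groups and its arrays 6 and 8 above its arrays 2 and 3, and the most abundant member was *Egfl7* in EH and PH and *Kdr* in EL and PL.

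*Mmrn2* (-3.96, SE 0.75) and *Icam2* (-3.98, SE 0.98, adjusted p = 0.0436), named for the size of their narrowing, are endothelial genes too, and *Icam2* lost the call without any 1 of 12 arrays (adjusted p up to 0.0986). The VEGF receptor *Kdr* had 0.23 at its brighter probe, and a dimmer *Kdr* probe, not well above background in PL, was higher in the high fraction by 3.96 at E15.5 and 3.25 at P2 after the floor, and neither probe was called. Without EH 6 and EH 8 the probes narrowed from the high fraction fell from 84 to 53, of which 52 were among the 84, and the median of the endothelial list was -1.65 with 5 members called. With normexp *Cdh5* (-1.48), *Tie1* (-1.50) and *Emcn* (-0.98) were under 3-fold and lost the call. Without PL 3 and PL 4 *Cdh5* and *Eng* lost it (adjusted p = 0.0701 and 0.0748), with interactions of -4.04 and -2.53 beside -4.08 and -2.71 over all arrays. Of the 72 genes narrowed from the high fraction 8 were on a list of another cell type, beside 77 of all 12978 genes (0.593%), and the part of endothelial or endocardial cells in the class was not tested.

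Leukocyte genes had a negative sign in 12 of 12 detected members (median -2.52, and -2.22 after the floor), beside 5972 of all 12978 genes. A gene that passes the detection rule through EH alone has this sign nearly by the rule itself. How many members passed in this way was not counted, so the sign count is no test. *Cd68*, a macrophage lysosomal protein (1.74 to -0.61), and *Itgam*, integrin αM (0.38 to -1.25), were called, against 1.63% of all genes called negative. *Itgam*, the most abundant member in each group and 95.5% of the mean sum in PL, lost the call without EH 6, EL 2, PL 2 or PL 4 (interaction -1.88 to -1.41 over the single arrays left out). The 2 other *Itgam* probes were far dimmer, with a highest group mean of 30.5, in PL. Neither was called (-1.38, adjusted p = 0.174, and -0.38, adjusted p = 0.886). The PL sum is thus largely that of 1 *Itgam* probe. Without EH 6 and EH 8 together 0 leukocyte genes were called, with adjusted p = 0.0692 for *Cd68* and a median of -1.27. The leukocyte sum was 3251, 3626, 5996 and 3232 for EL, 5527, 4572, 18821 and 5853 for EH, 9862, 4761, 12156 and 6679 for PL and 3486, 3617, 3237 and 3499 for PH, with EH 6 the highest array.

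Of 8 detected erythroid genes 0 were called in limma (0 at an unadjusted p under 0.05), and all had a negative sign (median -1.71, and -1.33 after the floor). The limit given for the leukocyte sign count holds for this one too. Their sum was 14697, 16997, 108752 and 15677 for EL, 66072, 20838, 117726 and 27294 for EH, 3386, 1975, 2393 and 2437 for PL and 1491, 1041, 1438 and 1166 for PH, highest on EL 6 and EH 6. *Hba-a2* was the most abundant member, and *Epb42* and *Rhag* were not well above background on any array. Without both EL 6 and EH 6, 1 of these and 5 of the leukocyte genes were called negative, and of all detected probes 230 were called positive and 235 negative.

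Epicardial genes had a positive sign in 12 of 12 detected members, beside 7006 of all 12978 genes, and a median of 2.12. After the floor the median was smaller but still positive. A gene that passes the detection rule through EL alone has a positive sign nearly by the rule itself. *Lrrn4* is such a gene, well above background on 4 EL arrays, 1 EH array and no P2 array. How many members passed through EL alone was not counted, so this sign count is no test either. Of the 12, 3 were called, against 1.54% of all genes called positive, *Krt19*, *Wt1* (3.05, but 0.96 after the floor) and *Lrrn4*. With normexp none of the 3 was called. *Krt19*, a keratin, had 972 ± 129 for EL, 536 ± 26.0 for EH and 61.1 ± 8.53 for PH, at least 3.13-fold above PL, where it was not well above background (interaction 3.62, SE 0.45, as fitted and 2.50 after the floor). The epicardial sum was 5782, 6018, 6953 and 5536 for EL, 3045, 2646, 4285 and 3523 for EH, 760, 710, 538 and 960 for PL and 969, 879, 897 and 972 for PH, with *Krt18* the most abundant. Both P2 groups were thus far below both E15.5 groups. Without EH 6 and EH 8, 5 of the 12 were called.

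Fibroblast genes gave 1 positive call among 11, *Fbln1*, against 1.54% of all genes, with a median of 0.71. Their sum was 22983, 13313, 19374 and 15055 for EL, 12449, 7516, 12512 and 11893 for EH, 1756, 1017, 847 and 805 for PL and 4508, 7082, 7595 and 5305 for PH. *Col1a2* was the most abundant in EL, EH and PL, but in PH *Fbln1* gave 88.5% of the mean sum, so the PH sum is largely that of 1 called gene. *Dpt* and *Twist1* were not well above background on any array. Of 10 smooth muscle and pericyte genes, *Cnn1*, a calponin (2.00), was called positive, against 1.54% of all genes, and *Acta2* (-1.96), *Abcc9* and *Rgs5* (-2.33, but -1.49 after the floor) negative, against 1.63% (median -0.75). Their sum was 62713, 69072, 65203 and 62187 for EL, 54328, 60578, 49856 and 49562 for EH, 55134, 35465, 48385 and 55365 for PL and 32549, 24018, 19979 and 22240 for PH, lowest in PH. *Acta2* was the most abundant in EL, EH and PL and *Smtn*, smoothelin, in PH, and *Myh11*, the smooth muscle myosin, was not well above background on any array. Of 8 Schwann and neural crest genes *Dct* and *Fabp7* (-2.70, but -0.86 after the floor) were called negative, against 1.63% of all genes (median 0.04). Their sum was 3384 ± 156 for EL, 3266 ± 256 for EH, 5014 ± 302 for PL and 6141 ± 274 for PH (mean ± SD, n = 4), with *Mitf* the most abundant. *Sox10*, *Erbb3*, *Foxd3*, *Tyrp1* and *Ret* were not well above background on any array, the PH arrays with their high *Mbp* signal included. What the cells of these lists contribute to the genes that widened or narrowed was not tested.

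**Figure D5:**
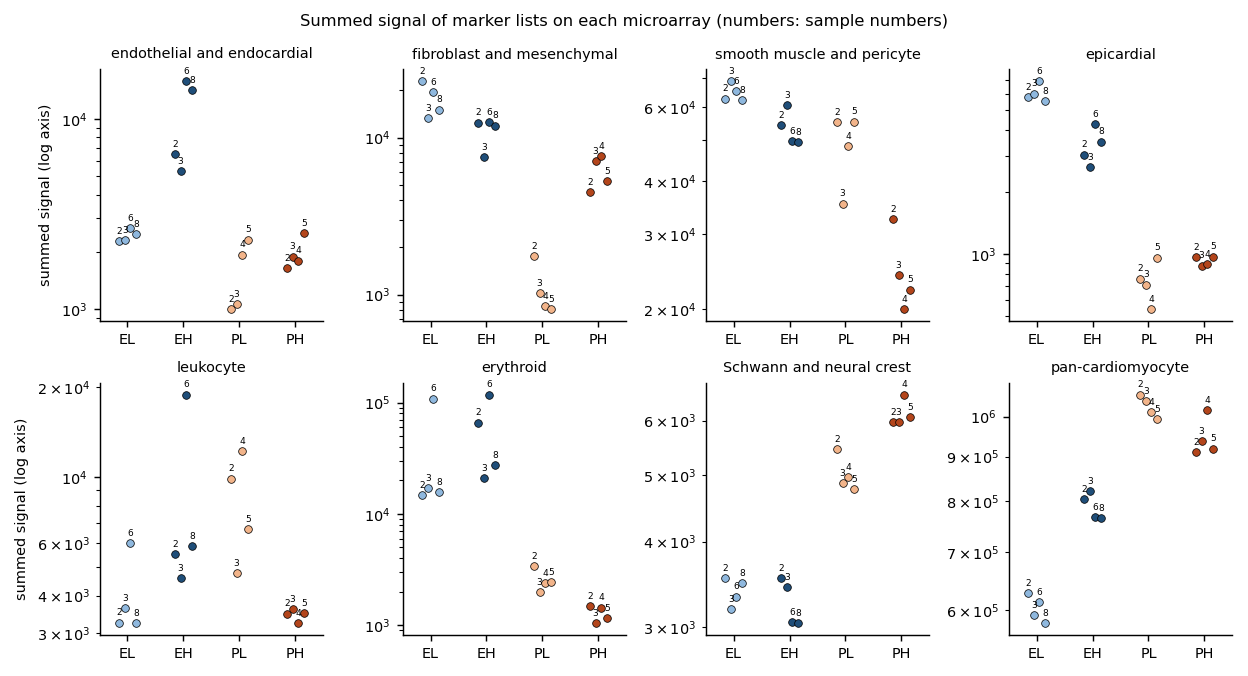
Summed normalized signal (log axis) of the detected members of 7 lists of other cell types and of the pan-cardiomyocyte list on each of the 16 arrays, with the sample number at each point. EH 6 and EH 8 stand highest for the endothelial list and EL 6 and EH 6 for the erythroid list.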

How the data were processed

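RNA of 16 sorted samples was amplified, labeled with Cy3 and hybridized to Agilent 8x60K one-color microarrays, 1 sample per array. The authors deposited scanner files with intensity values per spot (Agilent Feature Extraction 10.7.3.1, background subtracted) and a value table on the log2 scale, quantile normalized between arrays. On each array the value table correlated with the log2 of the processed intensities at 0.996 or more, and quantile normalization of the deposited intensity values gave the same 557 calls. Of 55681 probes, 33048 could be given a gene symbol, 27503 through an accession in RefSeq, and 8 probes had an empty value on some array. No spot was saturated, between 35.7% and 46.5% of probes per array were well above background, and the number of 4 arrays per group limits the precision.

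Differences within each stage and the interaction were fitted with limma 3.58.1 (R 4.3.3) over all 16 arrays and 4 groups, p-values were adjusted by the Benjamini-Hochberg method, and the procedure was tested on simulated data. Per the study's methods the 4 samples of a group are from independent experiments on pooled hearts, so p-values measure the spread between such experiments. Signals in the text are 2 to the power of the log2 value. Lower bounds used a floor for each array, set at the dimmest probe marked as well above its background. The named genes are the markers, up to 5 genes in each of 6 classes ranked by the interaction after the floor, up to 4 called members of each of 27 gene lists, and the ends of the atrial and ventricular lists. Other genes, such as *Itga6*, *Myl7*, *Sln*, *Nppa*, *Gucy1a1*, *Mlana*, *Pmel*, *Tyrp1*, *Smyd2*, *Smyd1*, *Irx2*, *Irx6*, *Tbx2*, *Kdr*, *Hey2*, *Myl3* and the further list members, were chosen after their values were seen. Members and lists were chosen with earlier results of these data known. Promoter sequences are from RefSeq (GRCm38.p6) and probe positions from the scanner files (mm9), and the builds were not mixed. Tables were handled in Python 3.11.15 with numpy 2.4.6 and pandas 2.3.3, and plots drawn in matplotlib 3.10.9. Results of some genes that the rule names are not reported here.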

Additional observations from a re-analysis of the deposited data

Results flagged for a closer look

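The fractions differed between the stages by the test of the interaction itself in 284 probes with a positive and 273 with a negative value. Among the named genes these were *Mbp* at 4.22, *Adamts8* at 3.93, *Dapk2* at 3.74, *Folr1* at 7.33, *Podn* at 4.97, *Gucy1b1* at 4.69 and *Matn2* at 5.77, which widened toward the high fraction. *Mapt* at -3.98, *Tuba8* at -5.96, *Dcpp3* at -5.04, *Robo4* at -4.98 and *Dct* at -3.91 widened toward the low fraction. An excess of the high fraction narrowed for *Ap3b2* at -3.85, *Mmrn2* at -3.96, *Icam2* at -3.98, *Fst* at -2.14 and *Gm1987* at -4.06, and an excess of the low fraction for *Bpifa1* at 4.64, *Megf10* at 3.64, *Mt2* at 2.45, *Grhl3* at 2.24 and *Elovl7* at 2.32. The higher fraction changed for *Irx3* at -4.88, *Dcpp1* at -5.44, *Crnde* at -4.67, *Cavin4* at -3.41 and *Limch1* at -2.76, and in the other sense for *Tnni2* at 3.54, *Crb2* at 5.36, *Bend6* at 2.52, *Gprc5b* at 1.96 and *Zfp385b* at 2.03. For genes with a group in which no array was well above background these fitted values are no bounds, and after the floor they were 5.13 for *Folr1*, 4.51 for *Matn2*, -5.26 for *Tuba8*, -3.99 for *Dct*, -4.58 for *Ap3b2*, -3.96 for *Fst*, -3.92 for *Gm1987*, 2.92 for *Bpifa1*, 2.63 for *Megf10*, -4.42 for *Crnde*, 3.02 for *Crb2* and 1.68 for *Zfp385b*. With normexp *Bpifa1*, *Megf10*, *Elovl7*, *Bend6* and *Zfp385b* were not called.

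In 9 of 164 groups of 4 arrays, 1 array lay far from the others, and chance gives about 1 in 20. *Adamts8* was highest on EL 2 with 416, *Folr1* on PL 4 with 9.63, which was not well above background, and *Dcpp3* lay apart on PL 4 with 917. *Ap3b2* lay apart on EH 3 with 725, on PL 5 with 6.25 and on PH 4 with 18.1, and *Bpifa1* on EH 2 with 11.6. The summed fibroblast signal lay apart on EH 3 with 7516 and the summed erythroid signal on EL 6 with 108752.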

How the results depend on the processing

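Of 89 genes that were called and are named or belong to the lists, 56 were called under all 27 alternatives, 33 lost the call under at least 1 and 0 changed sign. Background correction with normexp, under which 25 of these genes lost the call (*Bend6*, *Bmp7*, *Bpifa1*, *Cdh5*, *Ces1d*, *Elovl7*, *Emcn*, *Fabp7*, *Fgf9*, *Id3*, *Irx2*, *Irx5*, *Krt19*, *Lrrn4*, *Ltbp1*, *Megf10*, *Nr2f2*, *Ntn4*, *Rgs5*, *Scn4b*, *Tbx2*, *Tie1*, *Wnt11*, *Wt1* and *Zfp385b*), gave 95 positive and 138 negative calls, with 168 widened, 45 narrowed and 19 reversed. It added an offset of 50 to every signal, which draws the differences of dim probes toward 0. How much of the loss comes from this offset was not tested. With a 2-fold threshold 490 probes were positive and 428 negative (644 widened, 198 narrowed, 67 reversed). Among the probes well above background on all 16 arrays, which are fewer, these counts were 92, 117, 168, 22 and 17. Adjustment over the detected probes only gave 52 reversed. With the sample number as a replicate block 65 reversed, of which 27 were among the 32, and 611 probes were called, of which 485 were among the 557, *Fst*, *Irx2* and *Wnt11* losing the call, and the cause was not tested. The numbers were not taken as a pairing, since deviations of same-numbered fractions correlated at 0.189 to 0.450 at E15.5 but at -0.031 to 0.542 at P2. At E15.5 every sample correlated best with its own number, at P2 not every one. Leaving out 1 array at a time gave 249 to 308 positive, 227 to 294 negative, 357 to 440 widened, 91 to 133 narrowed and 25 to 37 reversed. The alternatives that leave out a pair of arrays were chosen after seeing the data. Without EH 6 and EH 8, 229 positive and 183 negative probes were called, and without PL 3 and PL 4, 312 and 221. Scaling to the 75th percentile, slide as a fixed term, a trended and robust variance and values raised to the floor left each of these counts within 1.5 times the reported one, but *Fabp7*, *Nr2f2*, *Ntn4*, *Rgs5*, *Scn4b*, *Tbx2*, *Wnt11* and *Wt1* lost the call after the floor, *Fst* and *Bmp7* with the 75th percentile, and *Fst* and *Gja5* with slide as a term. Probes near background have bounds only where a group was not well above it.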
